A study of Mus musculus with 2 samples.

Results

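Lipid storage genes were compared between hair follicles of wild-type mice and of mice carrying a transgene for dnFGFR2-IIIb, with age, tissue and RNA preparation shared by both groups per the labels. The 10 genes Plin1, Plin2, Adipoq, Fabp4, Pparg, Lpl, Cd36, Cidea, Dgat1 and Dgat2 were chosen by name, because sebocytes and adipocytes use them and their signal can mark gland or fat attached to isolated follicles. Of these, 9 had a probe set annotated to their symbol alone, with 17 probe sets in all, out of 18193 genes and 34945 probe sets with a single symbol. Plin1 had no such probe set and is not analysed here. Each group was 1 Affymetrix array, hybridised with total RNA of about 300 follicles pooled from 3 mice of separate litters at postnatal day 10, about 100 follicles from each mouse. No label names the mouse strain, the sex of the animals or the promoter that drives the transgene. With 1 array per group there is no spread between replicates and no test, so the values describe these 2 arrays and not the genotypes, and pooling hides the differences between mice.

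Cells store fat as triglyceride in lipid droplets, which are covered by perilipins and enlarged by proteins of the CIDE family. Fatty acids reach the cell when lipoprotein lipase (Lpl) splits circulating triglyceride, cross the membrane with the help of the scavenger receptor Cd36, travel bound to proteins such as Fabp4, and are esterified by the diacylglycerol acyltransferases Dgat1 and Dgat2. In skin, both sebocytes of the gland attached to each follicle and adipocytes of the dermal fat layer around the follicle bulb carry large droplets, and the nuclear receptor PPAR gamma (Pparg) is required for their differentiation. Adiponectin (Adipoq) is a hormone secreted by adipocytes and is the most specific fat cell gene of the set, whereas Plin2 coats droplets in nearly every cell type and Fabp4, Cd36 and Lpl are also made by endothelial cells, macrophages or both.

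On the transgenic array, 7 of the 8 lipid storage genes whose signals exceeded the floor on both arrays read lower, by amounts between 1.10-fold for Cidea and 2.13-fold for Adipoq, and 1, Lpl, read higher. The floor was a signal of 10.5 in arbitrary units, the 40th percentile of both arrays. A difference was counted at 2-fold with both signals above the floor. Adipoq was the 1 gene of the set that was 2-fold lower and 0 were 2-fold higher, where the shares among all 11565 genes with both signals above the floor were 1.58% lower and 1.6% higher. With 8 genes, 1 call is a small number to read against that background. At 1.5-fold, 2 genes, Adipoq and Plin2, were lower and 0 higher, where the shares of all genes were 6.78% and 6.36%. The median log2 ratio (transgenic over wild-type) of the 9 genes was -0.40, against 0.01 for all 14045 genes above the floor on at least 1 array, and 50.1% of genes above the floor on both arrays had a ratio under 1.

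**Figure D1:**
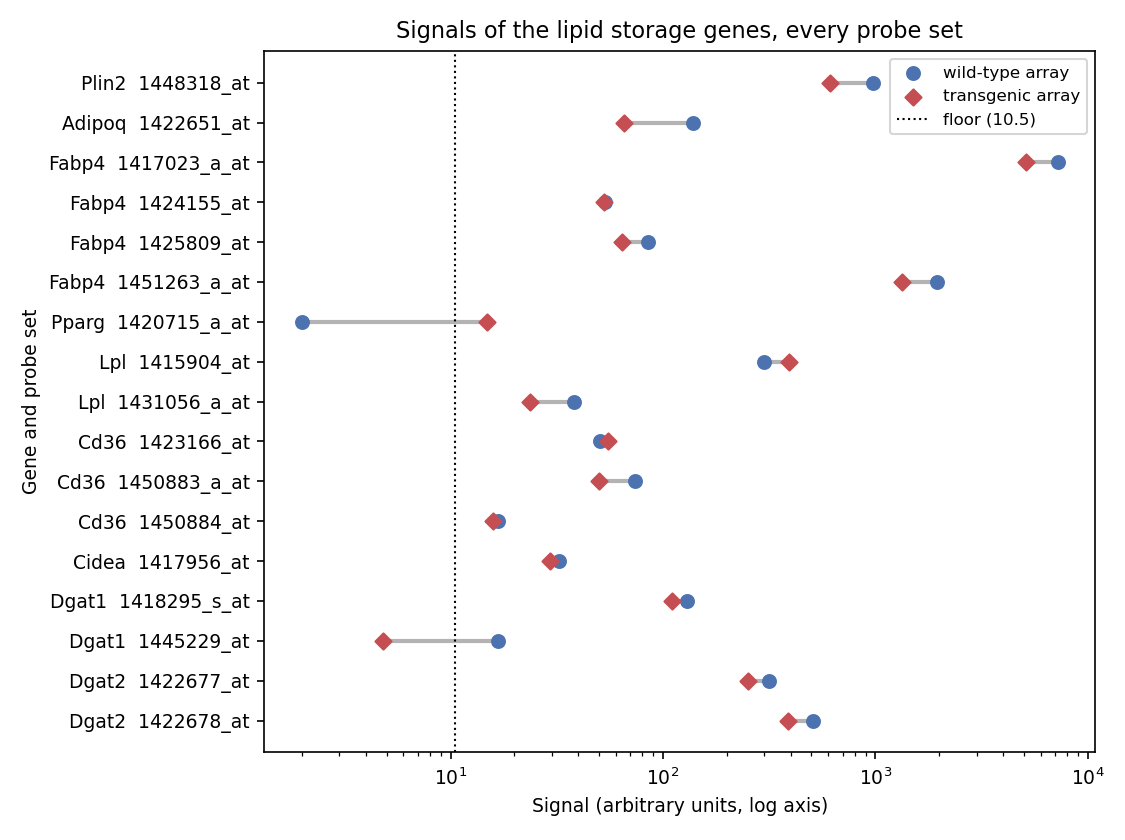
Signals of every probe set of the lipid storage genes on the wild-type array (circles) and the transgenic array (diamonds), in arbitrary units on a log axis, with the floor of 10.5 as a dotted line. The diamond lies to the left of the circle for 14 of the 17 probe sets, and Fabp4 spans wild-type signals from 53.2 to 7211 over its own probe sets.

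Adipoq had 1 probe set, with a signal of 139 in the wild-type and 65.3 in the transgenic pool. The signal was thus 53.1% lower, a log2 ratio of -1.09. Of the 11565 genes with both signals above the floor, 146 had a lower ratio. The spread that could be measured on these arrays was the SD among log2 ratios from different probe sets of a gene, which came to 0.52 for dim, 0.29 for middle and 0.17 for bright signals, by tertile. This spread holds differences between probe sets on the same 2 arrays. It leaves out any error that all probe sets of an array share and any difference between mice. The Adipoq ratio was 3.70 times the SD of its tertile, the middle one, in which 0.726% of genes were 2-fold lower. Adipoq signal exceeded the floor in both pools. Fewer fat cells cannot be told apart from less Adipoq RNA per cell, as for every gene described here.

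Plin2, the perilipin of small droplets in many cell types, gave 974 in the wild-type and 610.0 in the transgenic pool with its 1 probe set. The signal was 37.3% lower, a log2 ratio of -0.67, which was 3.95 times the SD of the bright tertile. In that tertile, 1.84% of 3855 genes were at least 1.5-fold lower, and 1.19% had a lower ratio than Plin2. The windows of 250 bases before the start sites of Adipoq and Plin2, the genes past 1.5-fold, are shown to let their promoters be compared. They come from RefSeq, build GRCm38.p6, and are written 5′ to 3′ on the strand of the gene, with matches to any searched motif in capitals. The Adipoq window is chr16:23146286-23146535 on the plus strand and the Plin2 window is chr4:86670060-86670309 on the minus strand.
Adipoq: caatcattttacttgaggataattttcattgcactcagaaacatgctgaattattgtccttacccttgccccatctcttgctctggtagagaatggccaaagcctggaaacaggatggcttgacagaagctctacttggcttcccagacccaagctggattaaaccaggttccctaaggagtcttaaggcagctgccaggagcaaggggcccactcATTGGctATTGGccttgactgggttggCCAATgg
Plin2: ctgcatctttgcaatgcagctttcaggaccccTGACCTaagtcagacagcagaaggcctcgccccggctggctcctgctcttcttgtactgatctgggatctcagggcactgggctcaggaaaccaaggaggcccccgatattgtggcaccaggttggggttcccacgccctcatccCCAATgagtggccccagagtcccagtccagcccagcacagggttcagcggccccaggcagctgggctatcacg

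Motifs were searched on both strands as exact letters. The core promoter element that positions transcription starts was searched as TATAAA, and the element bound by the factor NF-Y as CCAAT. The half-site read by nuclear receptors was searched as AGGTCA, and DR1, the repeat of that half-site with 1 base between the copies, is what PPAR and its partner RXR bind and contains the half-site. The Adipoq window held 3 CCAAT matches, at 34, 27 and 7 bases before the start site, and no match to the others. The Plin2 window held 1 CCAAT match at 73 bases and 1 match to the receptor half-site at 218 bases before the start. Of the 32851 windows of the same length in the RefSeq promoter table, 33.8% held the NF-Y element, 14% the nuclear receptor half-site, 12.4% the TATA element and 0.0335% DR1. The matches describe letters in these windows and are not sites of binding.

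Fabp4, the fatty acid binding protein of adipocytes, had 4 probe sets. The brightest read 7211 in wild-type and 5108 in transgenic follicles, a log2 ratio of -0.50, and the next read 1958 and 1334, a log2 ratio of -0.55. These are 2.91 and 3.25 times the SD of the bright tertile. The dimmer ones read 85.2 and 64.0 (log2 ratio -0.41) and 53.2 and 52.7 (-0.01), so that all 4 lay under a ratio of 1 but the last by less than its spread. The probe sets of this 1 gene differed up to 136-fold in wild-type signal, and levels of different probes were not set against each other here. Of the genes in the bright tertile, 3.01% had a lower ratio than the brightest Fabp4 probe set.

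Dgat2 and Dgat1 catalyse the last step of triglyceride synthesis and are unrelated in sequence. The probe sets of Dgat2 read 510.5 and 386.9 (log2 ratio -0.40) and 315 and 253 (-0.32), or 2.34 and 1.85 times the SD of the bright tertile. Both probe sets thus read lower in transgenic follicles, and 5.45% of bright genes had a lower ratio than the brighter one. Dgat1 read 130 and 111 with its brighter probe set (-0.23), which is 0.79 times its SD. Its second probe set read 16.8 in wild-type follicles and 4.8, under the floor, in transgenic ones. The Dgat1 difference of the brighter probe set was therefore within the spread between probe sets.

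The genes of fatty acid delivery did not go one way. Lpl read 298 in wild-type and 394 in transgenic follicles with the brighter probe set, a log2 ratio of 0.40, whereas the dimmer one read 38 and 23.7, a log2 ratio of -0.68. The probe sets of Lpl lie on opposite sides of 1, and their mean gave -0.14. The brighter ratio was 2.35 times the SD of its tertile, in which 95.8% of genes had a lower ratio, and the dimmer was 1.32 times its SD. Cd36 read 73.6 and 49.9 (-0.56), 50.6 and 54.9 (0.12) and 16.8 and 15.8 (-0.09) with its 3 probe sets, each within 1.09 times the SD of the dim tertile. The Cd36 differences were thus close to or within the spread, and Lpl read higher with its brighter probe set alone. Of the 4 genes with several probe sets over the floor in both pools, Fabp4 and Dgat2 had all ratios on one side of 1.

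Pparg and Cidea were dim. Pparg, which commits sebocytes and adipocytes to their fate, read 2.0 in wild-type and 14.9 in transgenic follicles with its 1 probe set. The transgenic signal is close to the floor, so that the ratio to the floor, at least 1.42-fold higher, is uncertain. Cidea, which lets droplets fuse and is found in brown fat and sebaceous glands, read 32.3 and 29.4, a log2 ratio of -0.14 that is 0.26 times its SD. With equal spiked hybridisation controls it was 0.05, beside a median of 0.19 for all genes.

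**Figure D2:**
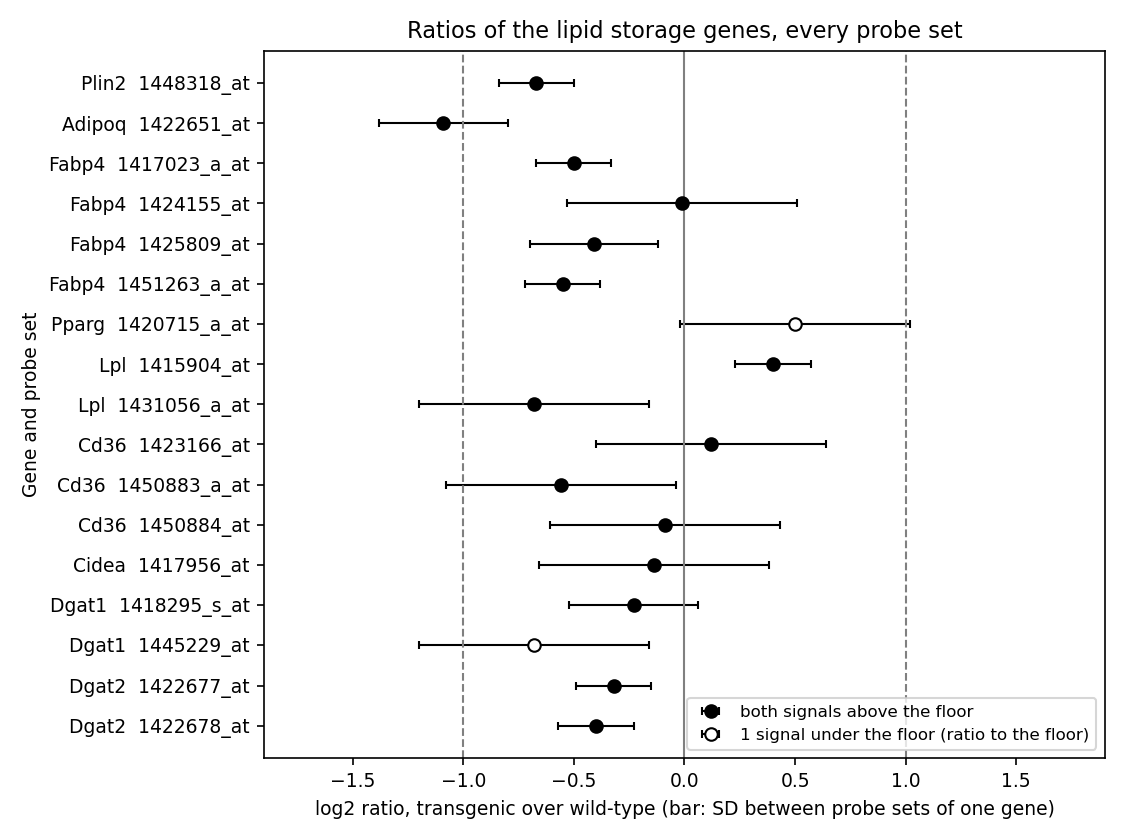
Log2 ratios of transgenic over wild-type signal for every probe set of the lipid storage genes, with bars of 1 SD among probe sets of a gene in that tertile of signal, and dashed lines at 2-fold. Adipoq alone lies beyond the dashed line, and the probe sets of Lpl and of Cd36 lie on both sides of 0.

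Among the 17 probe sets, 15 exceeded the floor on both arrays, of which 13 had a ratio under 1 and 2 a ratio above 1. The set was thus described as lower by median, while 5 of its genes (Pparg, Lpl, Cd36, Cidea and Dgat1) gave a ratio above 1, a ratio close to or within the spread, or probe sets that disagreed. The scaling of the arrays moved all ratios together. With equal medians, which put the median of all genes at -0.14, Adipoq had a log2 ratio of -1.23 and the set a median of -0.542. With equal spiked controls, which put all genes at 0.19, they were -0.90 and -0.211, so that 0 genes of the set were 2-fold lower. Both scalings multiply an array by 1 factor, so the place of the set relative to all genes was practically fixed and is not tested by them.

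**Figure D3:**
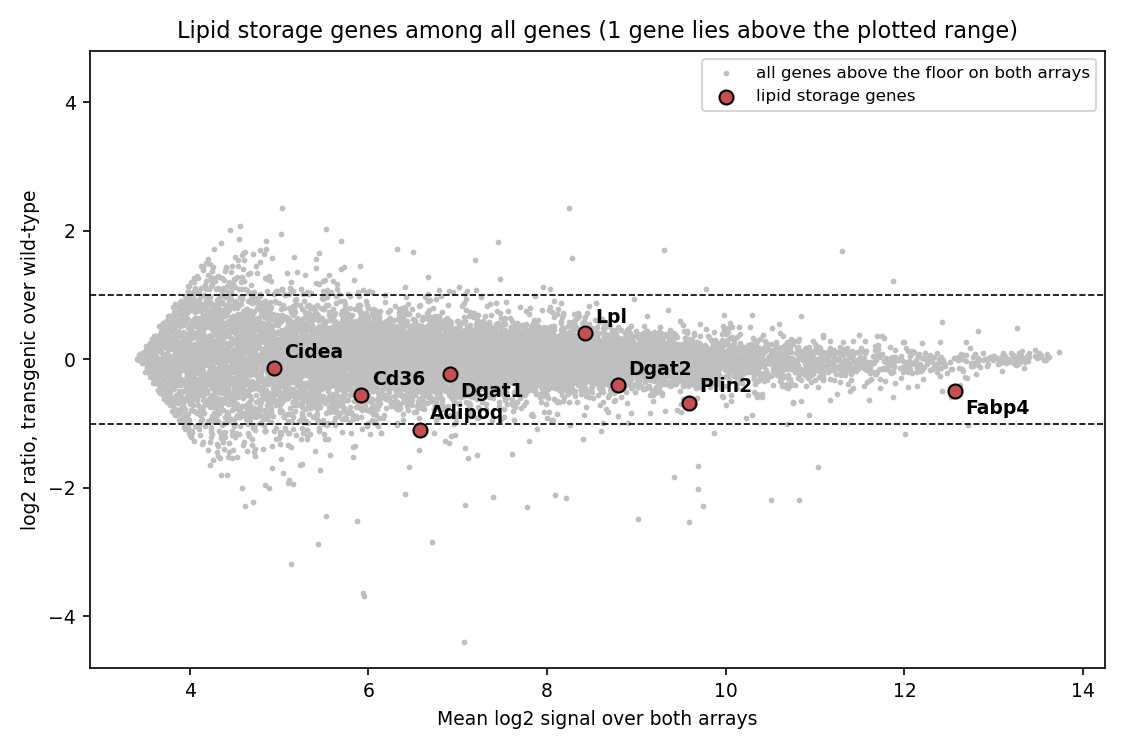
Log2 ratio of transgenic over wild-type signal against mean log2 signal for the 11565 genes with both signals above the floor (grey), with the 8 lipid storage genes above it in red and dashed lines at 2-fold; 1 gene, with a log2 ratio of 8.94, lies above the plotted range. The 4 brightest of the 8 genes lie toward the edges of a narrow cloud, Lpl on its upper side and the others on its lower side. Cidea and Cd36 lie inside the broad cloud of dim genes.

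The wider lipid pathway was described with lists of genes that share members with the set. Of 14 listed lipid droplet proteins, 12 exceeded the floor on at least 1 array, 0 reached 2-fold, and the median log2 ratio was -0.17. Without Plin2 and Cidea the other 10 gave a median of -0.14. Hsd17b11, a droplet-bound dehydrogenase, read 120 and 80.4 (-0.57), and Plin4, a perilipin of adipocytes, read 57.4 and 45.9 (-0.32). Cidec, the CIDE protein of white fat, went the other way near the floor, at 11.9 and 17.8. Of 17 genes of triglyceride synthesis, 14 exceeded the floor, 7 lower and 7 higher, 0 reached 2-fold, and the median was -0.06. Lpin2, a phosphatidate phosphatase, read 130 and 103 (-0.35, and -0.68 and -0.98 at dimmer probe sets above the floor), while the acyltransferase Gpat3 read 28.8 and 41.3 (0.52). Gpd1, which supplies glycerol phosphate, read 26.9 and 21.0 with its brightest probe set, while others went from under the floor to 19.9 and 20.5.

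Genes of lipolysis and of fatty acid uptake had the lowest list medians among the pathway lists. Of the 6 lipolysis genes above the floor, 5 read lower, beside 48.7% of all genes, and the median was -0.38. The list is small, and 0 reached 2-fold. At 1.5-fold, 1 gene was lower, beside 6.78% of all genes and 4.67% of those in its tertile, the middle one. That gene was Pnpla2, adipose triglyceride lipase, which starts the breakdown of stored triglyceride and read 181 and 110.2 (-0.72). Hormone-sensitive lipase (Lipe) read 196 and 145 (-0.44) and Pnpla3 read 73.5 and 55.6 (-0.40), whereas the lysosomal lipase Lipa read 38.3 and 53.3 (0.48, with -0.23 and -0.30 at its dimmer probe sets). Of the 15 uptake genes above the floor, 12 had a ratio under 1, beside 48.7% of all genes, and the median was -0.50. Of the 13 with both signals above the floor, 3 were at least 1.5-fold lower and 0 higher, beside 6.78% and 6.36% of all genes, and 13.8% of dim and 4.67% of middle genes were that much lower. Without Lpl, Cd36 and Fabp4 the other 12 gave -0.44. The 3 lower genes were the dim Lmf1, a chaperone that lipases need to fold (36.2 in wild-type follicles, -0.86), the fatty acid transporter Slc27a1 (85.3 and 49.1, -0.80, with -0.49 at its other probe set) and Angptl4, an inhibitor of Lpl (252 and 154, -0.71), which was chosen after its values were seen. Fabp3 read 34.9 in wild-type follicles and was at least 3.32-fold lower in transgenic ones, but its other probe set read 12.7 in wild-type follicles, close to the floor. The transporter Slc27a3 was under the floor in transgenic follicles, where it was at least 1.78-fold lower.

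Regulators of fat cell differentiation had no common direction. Of 15 above the floor, 8 read lower and 7 higher, 0 reached 2-fold, and the median was 0.00. Klf15, a Kruppel-like factor of adipocytes, read 37.3 and 56.6 (0.60), Ppard, the PPAR form of many tissues, read 52.0 and 35.5 (-0.55), and Ppara read 19.3 and 2.8, the latter under the floor. The receptors through which adiponectin acts differed by at most 1.15-fold, with Adipor1 at 902 and 923.5 (0.03) and Adipor2 at 759 and 870.4 (0.20), while Cdh13, the cadherin that binds adiponectin at the surface, read 33.8 and 23.3 (-0.54, with 0.23 at another dim probe set). The list of 3 had a median of 0.04.

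Whether the set followed fat or gland was checked with markers of each. Of the 14 listed white adipocyte markers, 11 exceeded the floor on at least 1 array, with a median of -0.17. With both signals above the floor, 1, Adipoq, was 2-fold lower and 0 were 2-fold higher, beside 1.58% and 1.6% of all genes. Without Adipoq and Fabp4 the other 9 gave a median of -0.07. The list's summed signal was 8212 in wild-type and 5971 in transgenic follicles, most of it Fabp4. Without Adipoq and Fabp4 it was 862 and 797. Of the list's 11 genes above the floor, 7 had a ratio under 1 and 4 a ratio above 1, beside 48.7% and 51.3% of all genes. Without Adipoq and Fabp4, 5 of 9 had a ratio under 1, near the share of all genes. A further cut at 40 on both arrays was not a planned setting and was made with the values known. It leaves out all 4 genes with a ratio above 1, so it cannot show a direction for the list. Above it, Car3, a carbonic anhydrase abundant in fat that was chosen after its values were seen, read 511 and 486 (-0.07). Adipoq, Fabp4, Lipe and Plin4, also above it, read lower, as given above. The dim defining genes differed from these. Leptin (Lep) read 4.6 and 26.7 and was thus at least 2.54-fold higher on the transgenic array, resistin (Retn) read 12.9 and 13.4, and Cidec was higher as given above. Lep, Retn and Cidec were all under 27 on both arrays, near the background. Acvr1c, a receptor found in fat cells, read 19.5 and 5.9, the latter under the floor. The other dim genes of the list were Lgals12, at 23.3 and 33.6 (0.53), and Slc2a4, at 25.5 and 22.7 (-0.17). Cfd had no probe set of its own symbol alone and is not analysed here.

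Markers of sebocytes and their duct showed no shared direction. Of 7 measured sebocyte markers, 4 read lower, beside 48.7% of all genes, 0 reached 2-fold and the median was -0.20. The summed signal was 3150 and 3132. Most of that sum was Elovl3 (1329 and 1158) and Scd1 (1152 and 1253), so it says little about the dimmer markers. The melanocortin receptor Mc5r, which promotes sebum output, read 13.8 and 25.6 (0.89), and the desaturase Scd3 read 51.5 and 42.6 (-0.27). Far2, a fatty acyl reductase of wax synthesis, read 15.3 and 3.1, and the acyl-CoA synthetase Acsbg1 read 73.7 and 57.4 (-0.36). Awat1, Awat2, Dgat2l6 and Soat1 are not analysed here, so that the gland was checked with few of its defining genes. Of 9 genes of wax and sebum synthesis, 5 read lower, beside 48.7% of all genes, and the median was -0.14. By brightest probe sets 0 reached 2-fold, beside 1.58% lower and 1.6% higher among all genes. The summed signals were 6866 and 7070, most of it Elovl1, Elovl3, Scd1 and Scd2. The probe sets of Far1, another fatty acyl reductase, disagreed. The brightest read 118 and 152 (0.36), another read 86.2 and 33.8 (-1.35), and the rest gave -0.19, 0.10 and -0.09. Elovl4, an elongase of very long fatty acids, read 697 and 927 (0.41, with 0.49 at its other probe set). The duct markers Krt79, Lrig1 and Plet1 read 121 and 117, 160 and 162, and 201 and 203, and Lrig1 gave -0.60 at another probe set. Their list, with Gata6, had a median of 0.01 and summed signals of 493 and 497. Over the 12 scaling, floor and probe set settings, the medians of fatty acid uptake (-0.64 to -0.24), lipolysis (-0.522 to -0.175), lipid droplet proteins (-0.355 to -0.022) and sebocyte markers (-0.341 to -0.009) stayed under 0. The median of white adipocyte markers ran from -0.437 with a floor of 50 to 0.021 with equal spiked controls, and was under 0 in all but the latter, where all genes had a median of 0.19. Those of triglyceride synthesis (-0.234 to 0.131), wax and sebum synthesis (-0.282 to 0.05) and adipogenic regulators (-0.101 to 0.189) lay on both sides of 0. Their highest values all came with equal spiked controls. The lowest of the last 2 came with equal medians, where all genes had a median of -0.14.

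**Figure D4:**
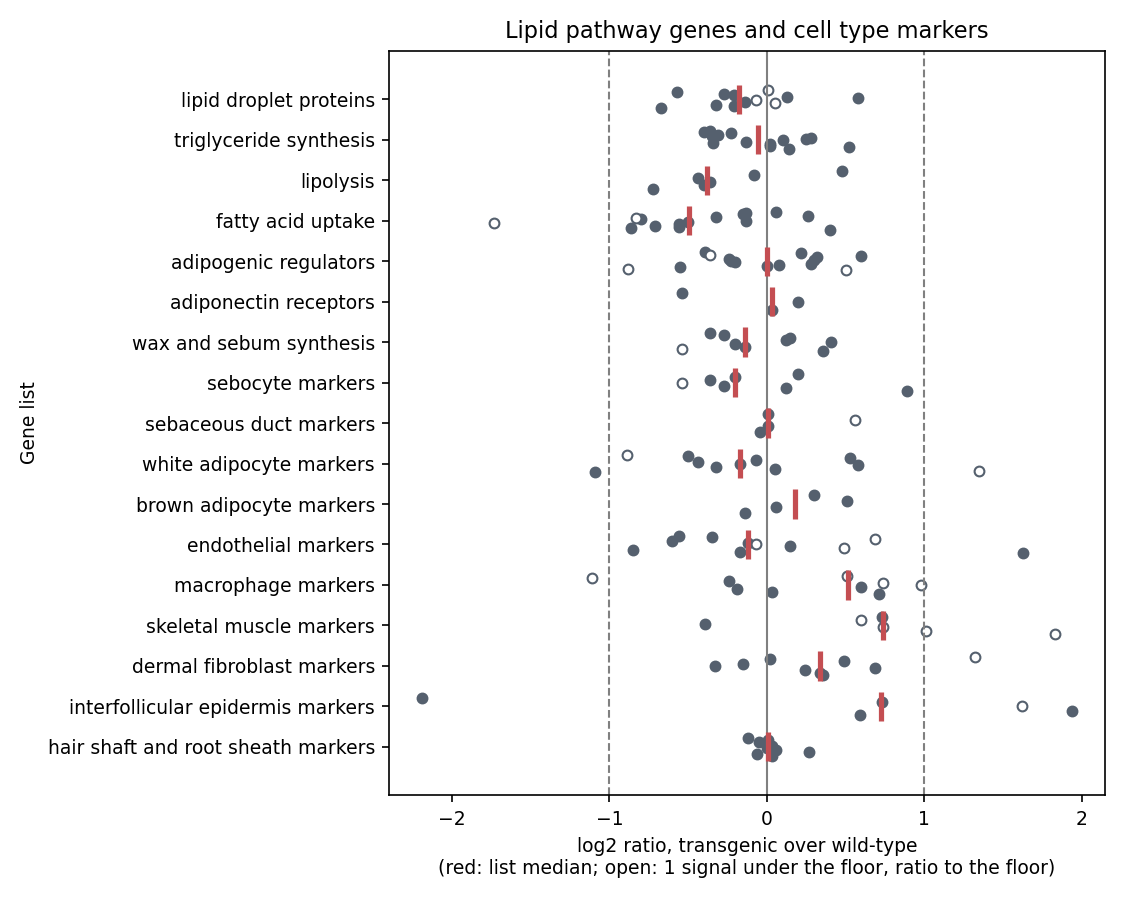
Log2 ratios of transgenic over wild-type signal for each gene above the floor on at least 1 array, in rows by list, with list medians as red bars, open circles for genes with 1 signal under the floor, and dashed lines at 2-fold. Fatty acid uptake and lipolysis have the lowest medians, at -0.50 and -0.38, while muscle, epidermis, macrophage and dermal fibroblast markers have medians above 0.3.

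Markers of other cells that share these genes or lie close to follicles were measured in the same way, and their part in the lipid differences was not tested. Of 12 endothelial markers 11 exceeded the floor, with a median of -0.12 and summed signals of 319 and 292. Cdh5 (13.7 and 42.3) and Tie1 (19.6 and 10.9) had opposite ratios, both with a signal close to the floor. The other Cdh5 probe set was under the floor in both pools. Pecam1 was below the floor in both pools. The 9 macrophage markers above the floor had a median of 0.51 and summed signals of 223 and 245, with Adgre1 at 11.8 and 19.3. Csf1r, the receptor for a macrophage growth factor, read 73.3 and 74.8 with its brightest probe set and gave -1.60 and 0.45 with the others. Cd14 read 22.6 and 2.2 and was at least 2.15-fold lower in transgenic follicles. Dermal fibroblast markers had a ratio above 1 in 7 of 9 genes, beside 51.3% of all genes. Their median was 0.34 and their summed signals were 2319 and 3181. Decorin (Dcn) read 985 and 1590 (0.69) and Col1a1 read 90.7 and 117 (0.36, with 0.93 at its other probe set). Lum (14.1 and 11.2, -0.33) and Pdgfra (51.6 and 46.4, -0.15) went the other way. Skeletal muscle markers had a ratio above 1 in 5 of 6 genes above the floor, beside the same 51.3% of all genes. The muscle list had a median of 0.73 and summed signals of 148 and 215, led by Acta1 (9.4 and 37.3). Of those 5, 4 were under the floor in wild-type follicles. Mylpf, a myosin light chain chosen after its values were seen, read 89.1 and 68.1 (-0.39). Ckm was under the floor on both arrays. Over the same settings the medians stayed above 0 for dermal fibroblasts (0.193 to 0.525) and came to -0.01 for macrophages and -0.388 for skeletal muscle with a floor of 50, which left out most of their dim genes. The endothelial median ran from -0.346 to 0.046 and was above 0 with equal spiked controls alone, where all genes had a median of 0.19. Brown fat markers were dim, with Ucp1 at 1.0 and 3.1 under the floor on both arrays, a median of 0.18 over 4 genes and summed signals of 140 and 161.

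**Figure D5:**
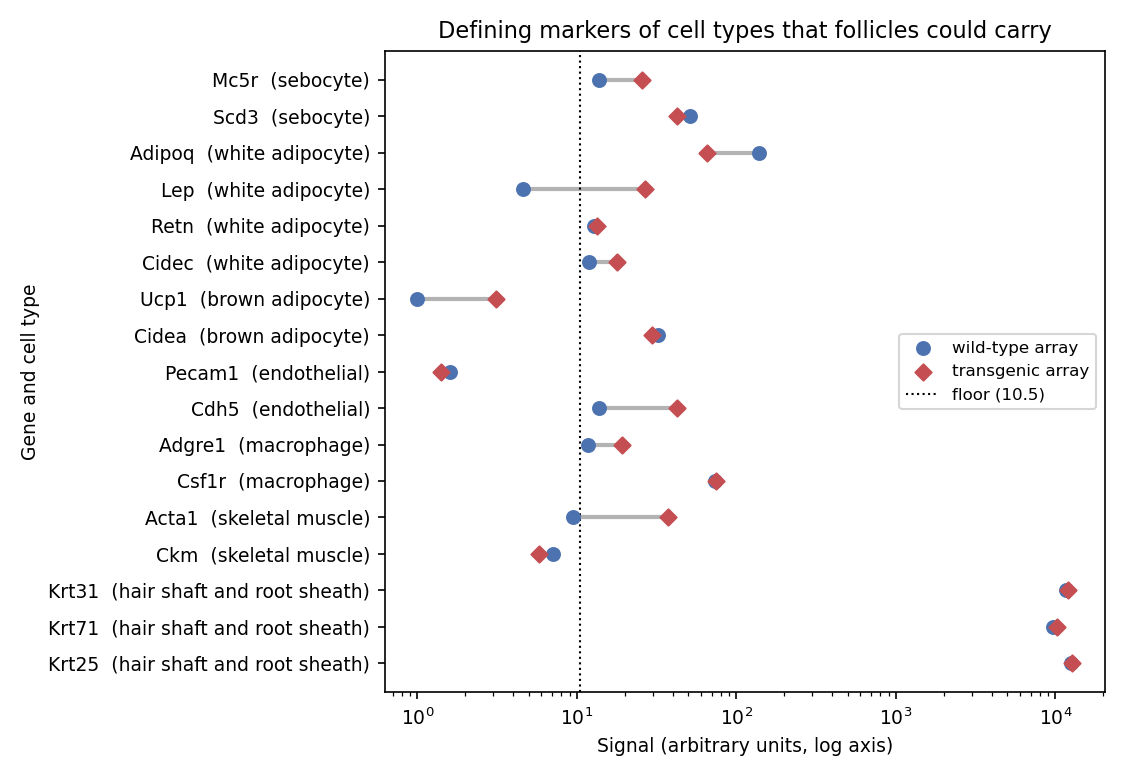
Signals of the defining markers of each cell type on the wild-type array (circles) and the transgenic array (diamonds), in arbitrary units on a log axis, with the floor of 10.5 as a dotted line. Follicle keratins read at least 9728 on both arrays, and Adipoq reads 139 and 65.3.

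The tissue label was borne out by the follicle keratins Krt31, Krt71 and Krt25, which read from 9728 to 12716 and had log2 ratios between 0.03 and 0.06. The interfollicular epidermis list had a median of 0.73 over 5 genes. In it, involucrin (Ivl) was 4.55-fold lower and the dim Krt77 (16.6 and 63.8) was 3.84-fold higher. The list's summed signals were 3382 and 1150, most of it Ivl (3110 and 683). Of the 5 genes, 4 had a ratio above 1, beside 51.3% of all genes. The share of probe sets above the floor was 58.7% on the wild-type and 61.3% on the transgenic array, and the 3' to 5' signal ratio of beta-actin, a measure of RNA integrity, was 1.89 and 2.06. The pools also differed in sex-linked genes. Eif2s3y, on the Y chromosome, read 190.9 and 0.4 and Xist read 352 and 1146, so that the makeup of the pools by sex and the genotype cannot be told apart. Fgfr2 read 197 and 368. Whether its probes lie in the transgene is not known here.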

How the data were processed

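Total RNA of pooled follicles was hybridised to 2 Affymetrix Mouse430_2 arrays, 1 per group. The authors deposited 1 linear intensity per probe set, scaled so that the 2% trimmed mean was 100 on each array, as the values show. The summary algorithm is not given in the sources used here. A common 2% trimmed mean over the 45037 non-control probe sets was then given to both columns, signals under the floor (40th percentile of both arrays, 10.5) were set to it, and a gene took the values of its probe set with the highest mean. Ratios are relative to the bulk of transcripts. Symbols came from the platform annotation through RefSeq gene identifiers (GRCm38.p6); 34945 probe sets had 1 symbol, 932 several and 9160 none. The genes, lists and rules were chosen with earlier results of these data known. Genes named from lists were the defining markers and up to 4 genes of largest absolute log2 ratio. The 2-fold rule was tested on simulated data with changes larger than 2-fold in genes well above the floor. Calls near 2-fold or near the floor were not tried. Python 3.11.15 and statsmodels 0.14.6 were used. The number of arrays limits the precision.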

Additional observations from a re-analysis of the deposited data

How the results depend on the processing

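No paired analysis was possible because each group held 1 array. The members' median of -0.40 became -0.542 with equal medians and -0.211 with equal spiked hybridisation controls and stayed within -0.50 to -0.36 under the other settings; the scaling moves every gene alike. The 1 gene 2-fold lower became 2 at 1.5-fold and 0 at 3-fold, with spiked controls and with a pseudocount in place of the floor. Of all genes, 185 were higher and 183 lower; these counts became 735 and 784 at 1.5-fold, 27 and 40 at 3-fold, 115 and 296 with equal medians, 316 and 102 with spiked controls, 22 and 37 with a floor of 50, 845 and 685 with a floor at the 20th percentile, 50 and 61 at the 60th, 53 and 76 with the pseudocount, and 443 and 326 when probe sets were counted, a setting chosen after seeing the data. The mean over probe sets gave 103 higher genes, and Lpl at -0.14. Without probe sets of the _s_at, _x_at and _a_at types, which may read more than 1 transcript, analysis gave Cd36 at 0.12, and Pparg was not measured under it. The cause of the other differences was not tested. Signals near the floor of 10.5, as for Pparg, limit any ratio.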
